A study of Homo sapiens with 17 samples.

Results

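The SOX genes other than SOX2 were taken as 10 loci: SOX21 of subgroup SOXB2, SOX4 and SOX11 of SOXC, SOX5, SOX6 and SOX13 of SOXD, SOX8, SOX9 and SOX10 of SOXE, and SOX7 of SOXF. A ChIP-seq peak belonged to a locus when its summit, the position of highest signal, lay inside the gene's span in the RefSeq annotation of GRCh38 or within 200 kb of it. The 10 windows cover 5.91 Mb. They held 411 of the 208775 peaks in 8 combined peak lists and 124 of the 56682 peaks in 2 lists of a first replicate. The choice used positions only and no measured height.

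All cells were U2OS, a human osteosarcoma line, in which a Flag-tagged protein was switched on by doxycycline from a stably integrated Tet-on construct and precipitated with a Flag antibody. The 8 groups, 2 biological replicates in each, expressed FOXA1, FOXA2 or FOXA3 at full length, each of these without its C-terminal domain (CTD), full-length SOX2, or SOX2 fused to the CTD of FOXA2. Induction was at 500 ng/ml for 4 days in all 8 groups per the treatment labels, and 1 input sample completes the set of 17. The extraction protocol writes the same number with ng/ul, and the conflict was not resolved. The study asked what the CTD adds to the genomic occupancy of these factors. The factors are overexpressed in cells of 1 line, and the expression of the 10 SOX genes in these cells was not analysed here. Neither was a peak list from cells without a Flag-tagged protein, so a background level of peaks at these loci is not given.

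SOX proteins bind DNA through an HMG box that fits into the minor groove and bends the helix, at short sites such as ACAAAG. FOXA proteins bind through a forkhead domain at sites such as TGTTTAC or TGTTTGC. Members of both families are known as pioneer factors, which can reach sites in closed chromatin. SOX genes often lie within long stretches of regulatory DNA, and SOX5, SOX6 and SOX9 act together in cartilage formation.

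The promoters shown here lay under peaks of SOX2 or the fusion, whose q values are given below. Those of SOX5 and SOX6 lay under FOXA peaks as well. The first lies at a start of SOX5, the second lies inside SOX6 before an internal start, and the third belongs to LOC105371689, an uncharacterised RefSeq gene below SOX13. Each line holds the 250 bases before the annotated start, 5′ to 3′ on the gene's strand, from RefSeq (GRCh38.p14), with motif matches in capitals.
SOX5 promoter (chr12:24562492-24562741, minus strand): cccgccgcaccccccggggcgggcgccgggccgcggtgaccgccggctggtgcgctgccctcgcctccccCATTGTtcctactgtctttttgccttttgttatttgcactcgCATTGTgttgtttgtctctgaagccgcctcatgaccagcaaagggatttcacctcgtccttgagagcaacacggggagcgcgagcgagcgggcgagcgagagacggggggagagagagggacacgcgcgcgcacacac
SOX6 internal promoter (chr11:16356547-16356796, minus strand): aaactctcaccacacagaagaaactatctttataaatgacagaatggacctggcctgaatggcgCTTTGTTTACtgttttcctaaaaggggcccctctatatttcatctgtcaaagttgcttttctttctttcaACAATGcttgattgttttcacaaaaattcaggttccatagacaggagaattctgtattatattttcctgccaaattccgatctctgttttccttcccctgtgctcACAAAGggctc
LOC105371689 promoter (chr1:203996536-203996785, plus strand): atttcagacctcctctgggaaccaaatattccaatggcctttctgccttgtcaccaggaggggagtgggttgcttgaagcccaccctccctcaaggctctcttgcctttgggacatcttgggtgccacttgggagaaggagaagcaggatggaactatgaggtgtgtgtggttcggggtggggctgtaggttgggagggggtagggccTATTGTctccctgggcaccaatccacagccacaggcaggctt
The search covered both strands for the forkhead words TGTTTAC and TGTTTGC and the SOX words ACAAAG, its relative ACAATG, and the variant ACAATA. At the SOX5 promoter 2 copies of ACAATG stood on the opposite strand, from base 71 and from base 113 of the printed line. The SOX6 internal promoter held TGTTTAC from base 68, overlapped by ACAAAG on the opposite strand from base 65, and further ACAATG from base 135 and ACAAAG from base 240. At LOC105371689 the match was ACAATA on the opposite strand from base 209. Of 34961 promoters of the same length in the table, 6.08% held a forkhead word and 25.8% a SOX word.

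The SOX5 promoter lay under a peak in the lists of FOXA1, of FOXA2 without its CTD, and of the first replicates of SOX2 and the fusion. The SOX6 internal promoter lay under a peak in all 4 FOXA1 and FOXA2 lists and in both first-replicate lists. Among all promoters, 6.18% carried a FOXA1 peak, 1.74% a FOXA1 peak after CTD deletion, 5.67% a FOXA2 peak, 4.81% a FOXA2 peak after CTD deletion, 0.892% a SOX2 first-replicate peak and 5.30% a fusion first-replicate peak. The promoter of LOC105371689 lay under a fusion peak in the combined list and under peaks of both first-replicate lists, with no FOXA peak. Several of these first-replicate peaks were weak. The −log10 q of the SOX2 peaks was 0.121 at SOX5, 0.121 at SOX6 and 0.990 at LOC105371689. That of the fusion peaks was 2.84, 0.0967 and 8.47, in the same order. Thus none of these SOX2 peaks met a q of at most 0.05, and neither did the fusion peak at SOX6. The promoter table matched 5 of the 10 genes (SOX4, SOX5, SOX6, SOX13 and SOX21) with 9 promoters. Of these 9, 2 carried a FOXA1 peak, 1 after CTD deletion, 1 a FOXA2 peak and 2 after CTD deletion. A SOX2 first-replicate peak was on 2 and a fusion first-replicate peak on 4. The SOX6 promoters chr11:16738478-16738727 and chr11:16402864-16403113 carried fusion first-replicate peaks only. The former held no forkhead or SOX word, the latter 1 SOX word. The promoters of SOX4, SOX13 and SOX21 carried no peak in any of the 10 lists.

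Before the loci are compared, the lists themselves differ in ways that set peak numbers. IDR, the irreproducible discovery rate, measures how well a peak's rank agrees between replicates, and the least reproducible peak kept had an IDR of 0.200 for FOXA1, 0.351 for FOXA2 and 0.100 for FOXA3. After CTD deletion these limits were 0.0501, 0.25 and 0.01, in the same order. SOX2 was kept to 0.100 and the fusion to 0.920, so the combined lists of this pair were cut very differently. Of the 6130 rows of the FOXA3 list, 5012 were identical to rows of the FOXA3 list after CTD deletion, which included 13 of the 14 rows at the SOX loci. On chromosomes 1 to 22 and X, only 120 of the 1365 combined SOX2 peaks lay outside the longest gene-free stretch of each chromosome.

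The 10 loci carried peaks of all 6 FOXA lists and of the fusion, and no peak of the combined SOX2 list. FOXA1 had 76 peaks there and 85 after CTD deletion, FOXA2 had 92 and 106, and FOXA3 had 14 and 15. The fusion had 23 peaks in its combined list. The first-replicate lists held 33 SOX2 and 91 fusion peaks. At least 1 peak was present at 9 of 10 loci for FOXA1 (91.7% of 19974 protein-coding genes), 9 for FOXA1 without its CTD (91.5%), 9 for FOXA2 (92.5%) and 10 for FOXA2 without its CTD (93.4%). FOXA3 reached 5 loci with and without the CTD (50.4% and 55.2% of genes). The combined lists reached 0 loci for SOX2 (2.45%) and 7 for the fusion (48.2%), and the first-replicate lists 7 for SOX2 (56.4%) and 9 for the fusion (88.7%). All 6 FOXA lists met at 5 loci, SOX5, SOX6, SOX7, SOX13 and SOX21, against 49% of genes, so these shares were close to the background in most lists.

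**Figure D1:**
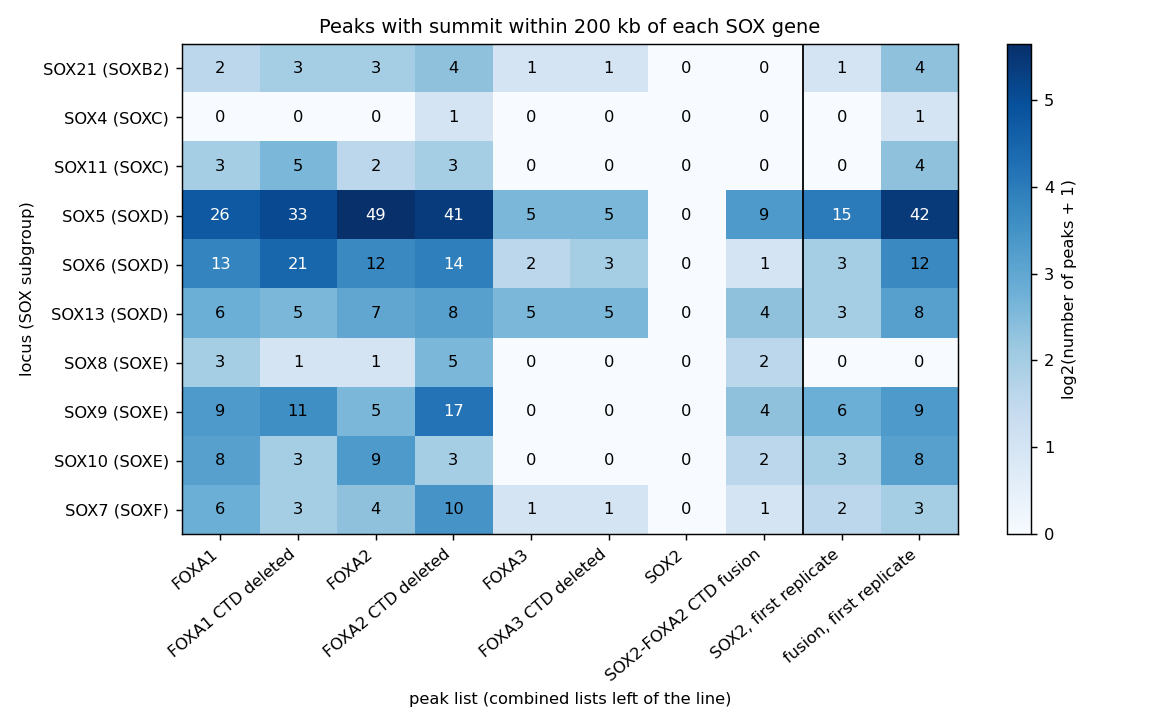
Number of peaks at each SOX locus (rows, with the SOX subgroup) in each peak list (columns), with colour for log2 of the number plus 1. SOX5 is the fullest row, with 26 to 49 FOXA1 or FOXA2 peaks, SOX4 is nearly empty, and the combined SOX2 column is 0 throughout.

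Since SOX5 and SOX6 are long genes, the counts were also set per Mb. The density at the loci over that of the whole list was 1.05 for FOXA1 (0.825 to 1.31), 0.870 after CTD deletion (0.695 to 1.08), 1.06 for FOXA2 (0.852 to 1.30) and 1.03 after CTD deletion (0.842 to 1.24). The brackets are exact Poisson 95% intervals of the count and cover counting error only. FOXA3 gave 1.18 (0.646 to 1.98) and 1.14 without its CTD (0.637 to 1.88). The SOX2 ratio was 0, with an upper bound of 1.39 against the whole list. That of the fusion was 1.504 (0.954 to 2.26), and 1.95 (1.23 to 2.92) with the longest gene-free stretches left out of the reference. The first-replicate ratios were 1.23 for SOX2 (0.845 to 1.72) and 1.10 for the fusion (0.889 to 1.36). Much of this rests on SOX5: without that locus the ratio was 0.653 for FOXA2 (0.472 to 0.879), 0.703 for FOXA1 without its CTD (0.525 to 0.922) and 1.21 for the fusion (0.661 to 2.03), or 1.57 (0.856 to 2.63) with the gene-free stretches left out. Within 50 kb of the 10 genes the ratio was 1.49 for FOXA2 (1.15 to 1.91), 1.66 for the SOX2 first replicate (1.04 to 2.52) and 1.53 for the fusion's first replicate (1.17 to 1.96). SOX5 was not left out at this window, and its gene span alone held 37 of the 64 FOXA2 peaks. Of the first-replicate peaks it held 14 of 22 for SOX2 and 37 of 62 for the fusion. In the other lists the interval at 50 kb included 1. Their ratios were 1.29 for FOXA1, 1.25 after CTD deletion, and 1.20 for FOXA2 without its CTD. The FOXA3 lists gave 1.03 and 1.08, the combined fusion 1.73 (0.920 to 2.95) and SOX2 0. Within 500 kb the ratio was 0.895 for FOXA2, 0.904 for the SOX2 first replicate and 0.969 for the fusion's. The interval at 500 kb lay below 1 for FOXA1 without its CTD, 0.787 (0.668 to 0.921). The same held for FOXA2 without its CTD, 0.809 (0.691 to 0.941), and for SOX2, 0 with an upper bound of 0.688. Elsewhere the interval at 500 kb included 1. Across single loci the fusion's median was 3.66 peaks per Mb against a median of 0 over all protein-coding genes, which are near a fusion peak in 48.2% of cases.

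**Figure D2:**
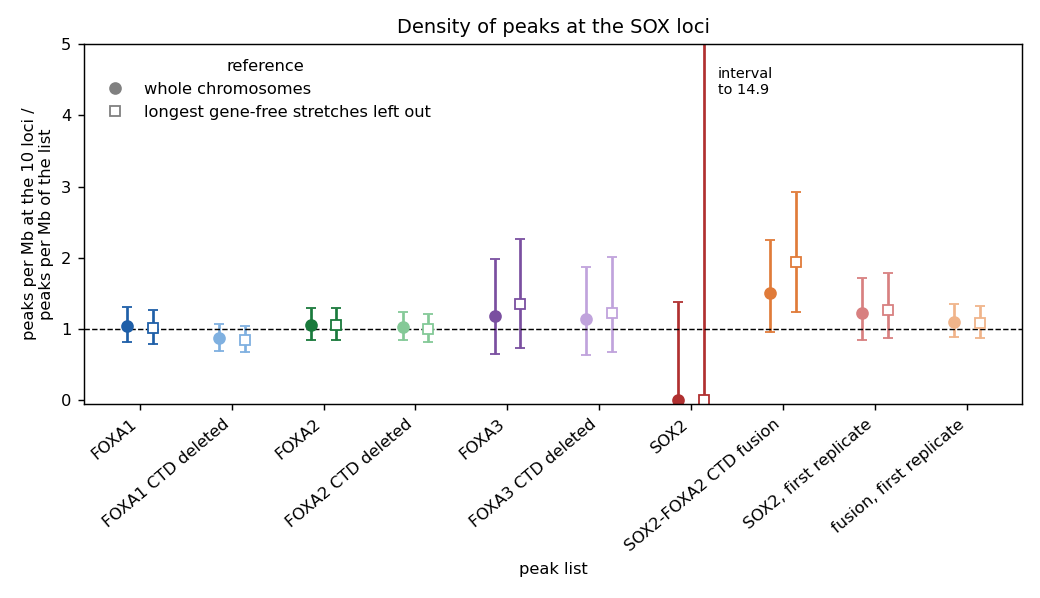
Peaks per Mb at the 10 SOX loci divided by peaks per Mb of the list, for each list, with exact Poisson 95% intervals of the locus count. Filled circles use whole chromosomes and open squares leave out the longest gene-free stretches. The interval of the fusion lies above 1 only for the open square (1.23 to 2.92), and that of SOX2 reaches 14.9 there.

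SOX21, a SOXB2 protein known to counteract SOXB1 factors such as SOX2, lies at chr13:94709622-94712545. FOXA1 had 2 peaks at the locus and 3 after CTD deletion, FOXA2 had 3 and 4, and FOXA3 had 1 and 1. The FOXA lists met at 1 site, chr13:94656438-94657366, 52.7 kb from the gene. Its strength, the lower −log10 p of both replicates, was 3.45 and 3.53 in the FOXA1 lists, 2.94 and 4.79 in the FOXA2 lists and 6.95 in both FOXA3 lists. Strengths depend on the unknown depth of each library, so between lists they show no change of occupancy. The strongest FOXA1 or FOXA2 peak of the locus was that of FOXA2 at chr13:94512528-94512927 (5.99), inside DCT, the dopachrome tautomerase gene of melanin synthesis. SOX2 and the fusion had no peak in the combined lists. In the first-replicate lists SOX2 had 1 peak, chr13:94706555-94706893, which lay 2.92 kb from SOX21 and overlapped 1 of the 4 fusion peaks. The strongest of those 4 was chr13:94626410-94626771 (fold 3.69), in GPR180. None of these 5 peaks overlapped a FOXA peak, and none met a q of at most 0.05.

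The SOXC genes act in progenitor cells of many tissues. SOX4 (chr6:21593751-21598619) was the emptiest of the 10 loci and had a single peak in the combined lists, that of FOXA2 without its CTD at chr6:21421131-21421525, 172 kb away, with a strength of 2.80. The fusion's first replicate added chr6:21566095-21566442, 27.4 kb away, which did not meet a q of at most 0.05. SOX11 (chr2:5692384-5701385) had 3 FOXA1 peaks and 5 after CTD deletion, and 2 FOXA2 peaks and 3 after CTD deletion. The strongest of them was chr2:5546185-5547195 in FOXA1 without its CTD, with a strength of 4.37. FOXA3 and both SOX2 lists had no peak there. The fusion's first replicate had 4, of which 2 overlapped a FOXA peak, and the strongest, chr2:5594184-5594906, had a fold enrichment of 4.61 over local background in the authors' list.

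SOX5, a SOXD gene of 1033 kb at chr12:23529504-24562650, held the most peaks of the 10 loci in the FOXA1, FOXA2, fusion and first-replicate lists, and for FOXA2 more than the other 9 loci together. FOXA1 had 26 peaks and 33 after CTD deletion, FOXA2 had 49 and 41, FOXA3 had 5 and 5, and the fusion had 9. The first replicates had 15 peaks for SOX2 and 42 for the fusion. The strongest combined fusion peak, chr12:23595248-23596704 inside the gene, had a strength of 3.29 and was 1 of 3 that tied. Of the 94 separate sites these combined lists gave, 72 lay inside the gene, which fills 1033 kb of its window of 1.43 Mb. Per Mb, 6.72% of genes were at least as dense in FOXA2 peaks and 6.26% in fusion first-replicate peaks.

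The strongest FOXA site of all 10 loci lay 3.86 kb beyond the lower end of SOX5, at chr12:23525079-23526301. Its strength was 12.2 for FOXA1, 28.4 after CTD deletion, 20.6 for FOXA2, 19.6 after CTD deletion and 8.24 in both FOXA3 lists. In the list of FOXA1 without its CTD it ranked 90 of 50539. SOX2's first replicate had a peak there, chr12:23525659-23525985 (fold 3.31, −log10 p 3.16), and so had the fusion's. Neither met a q of at most 0.05, and the combined fusion list had no peak there. Another 3 sites at SOX5 were in all 6 FOXA lists: chr12:24226603-24227530 and chr12:24530570-24531210 inside the gene, and chr12:24649335-24650447 at 87.2 kb beyond its upper end.

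The strongest SOX2 and fusion site at SOX5 lay away from FOXA peaks. In both first-replicate lists it was the same site, chr12:23895962-23896437 for SOX2 (fold 6.34, −log10 p 8.94) and chr12:23895967-23896568 for the fusion (fold 10.1, −log10 p 18.8). It ranked 224 of 13977 and 44 of 42705, inside the gene, and no FOXA peak overlapped it. The gene table used gives no exons. It was in neither combined list. Inside SOX5 the first-replicate peaks were denser than in its flanks, 13.6 against 2.5 per Mb for SOX2 and 35.8 against 12.5 for the fusion. The flank values rest on 1 SOX2 peak and 5 fusion peaks, beside 14 and 37 inside. For FOXA2 the densities per Mb were 35.8 inside and 30 in the flanks, and after CTD deletion 26.1 and 35.

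SOX6, at chr11:15966449-16738477, encodes the close relative of SOX5 and spans 772 kb. FOXA1 had 13 peaks there and 21 after CTD deletion, FOXA2 had 12 and 14, and FOXA3 had 2 and 3. Of the 32 sites in the combined lists 28 lay inside the gene, whose window spans 1.17 Mb. FOXA1 without its CTD had 25.9 peaks per Mb inside (20 peaks) against 2.5 in the flanks (1 peak). The strongest FOXA1 or FOXA2 peak was chr11:16155207-16155960 (7.49, FOXA1 without its CTD), which tied with 1 other. The fusion had 1 combined peak, chr11:16770029-16770336, outside the gene at 31.7 kb and nearer to PLEKHA7. The first replicates had 3 peaks for SOX2, all inside the gene and all shared with the 12 of the fusion. The strongest was chr11:16704297-16704705 for SOX2 (fold 3.82) and chr11:16704276-16704668 for the fusion (fold 5.33). Of these, only the fusion's met a q of at most 0.05.

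SOX13, the third SOXD gene (chr1:204073115-204127743), stood out for FOXA3 and the fusion. It had 6 FOXA1 peaks and 5 after CTD deletion, 7 FOXA2 peaks and 8 after CTD deletion, and 5 FOXA3 peaks in both lists. Per Mb, 1.15% of genes were at least as dense in FOXA3 peaks. For combined fusion peaks it was 6.77%, and SOX9 was denser in them (4.85%). All 5 FOXA3 peaks lay beyond the upper end of SOX13, from 71.2 to 192 kb, and 3 of them inside PLEKHA6. Sites in all 6 FOXA lists were chr1:204224446-204225324, with a strength of 11.9 in FOXA1, and chr1:204263325-204264188, with 10.9 in FOXA1 without its CTD.

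The fusion's 4 combined peaks at SOX13 overlapped no FOXA peak. The one inside the gene, chr1:204108408-204109072, had the lowest IDR of all 23 (0.335), with a −log10 p of 11.2 in one replicate and 3.29 in the other. Another, chr1:203996453-203997293, covers the LOC105371689 promoter printed above and reached 14.7 in one replicate and 2.92 in the other. Both sites were also first-replicate peaks of SOX2, with folds of 3.74 and 4.45, and of the fusion, with folds of 6.12 and 8.08. At both, only the fusion's peak met a q of at most 0.05. The 5 FOXA3 peaks thus lay on 1 side of SOX13, and the 3 SOX2 first-replicate peaks inside the gene or on the other side, as the plot of summit positions shows. The remaining combined fusion peaks, chr1:204130143-204130572 and chr1:204152150-204152589, lay on the FOXA3 side. FOXA1 and FOXA2 peaks lay on both sides, with chr1:203915782-203916487 below the gene in all 4 of their lists.

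**Figure D3:**
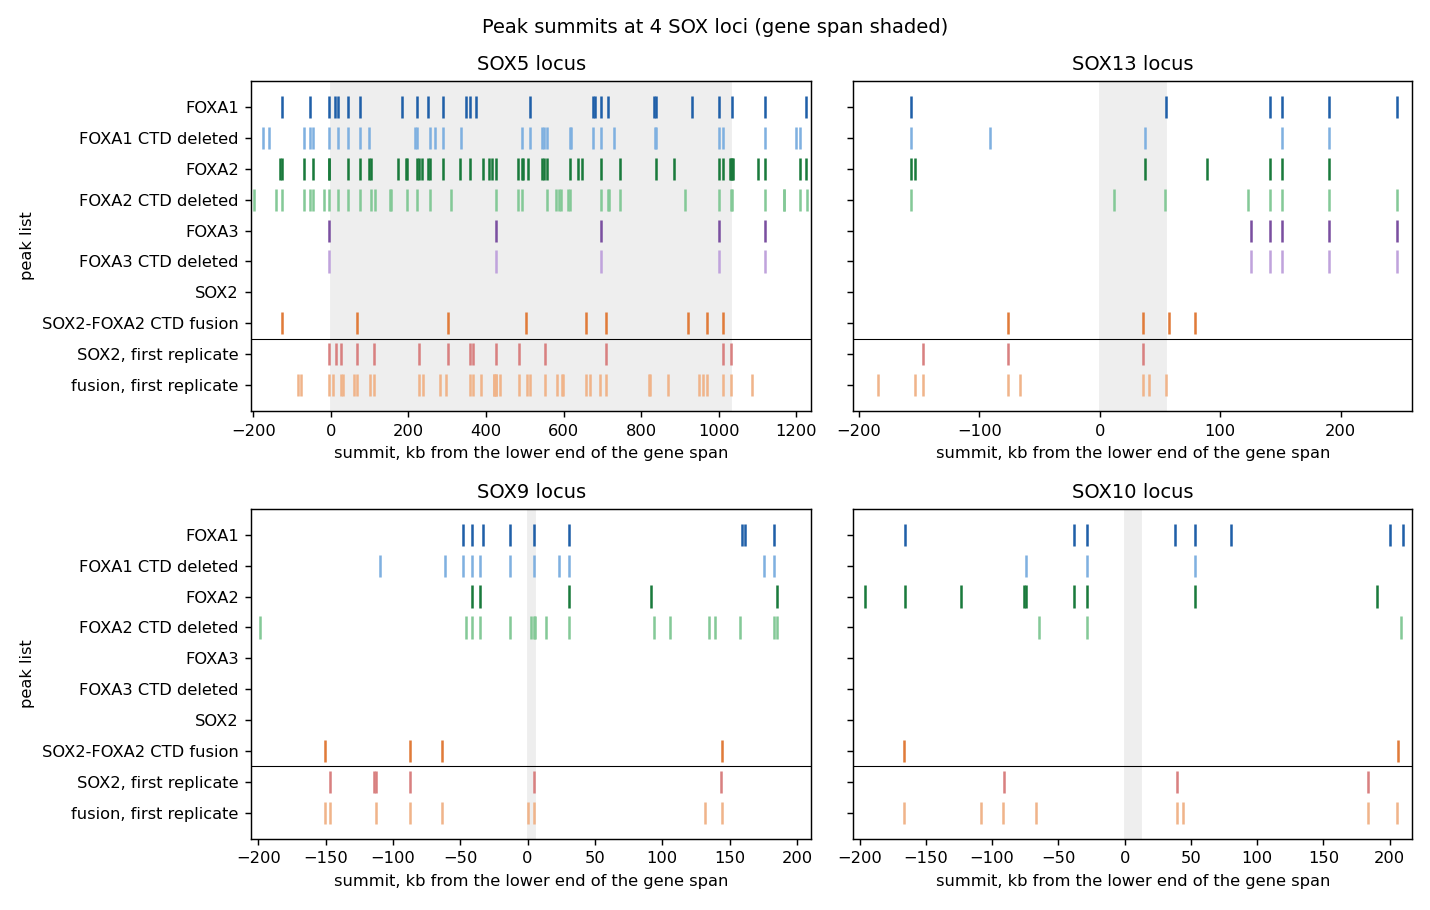
Summit positions at SOX5, SOX13, SOX9 and SOX10 in kb from the lower end of the gene span (shaded), 1 tick for each peak and 1 row for each list. At SOX13 the 5 FOXA3 ticks lie beyond the gene, while the 3 first-replicate ticks of SOX2 lie inside the gene or below it. Ticks of FOXA1, FOXA2 and the fusion lie on both sides.

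SOX8 (chr16:981770-986979), a SOXE gene among 11 other coding genes, had few peaks. FOXA1 had 3 and 1 after CTD deletion, FOXA2 had 1 and 5, and FOXA3 had none. The strongest, chr16:1154862-1155347 in FOXA2 without its CTD (6.17), lay in CACNA1H, a calcium channel gene. The fusion had 2 peaks, both in LMF1, a gene for lipase maturation, with strengths of 2.41. That at chr16:922511-922912 overlapped a peak of FOXA2 without its CTD. The first-replicate lists had no peak at the locus.

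SOX9 (chr17:72121020-72126416), which directs cartilage and testis development, has no other coding gene within its window. FOXA1 had 9 peaks and 11 after CTD deletion, FOXA2 had 5 and 17, and FOXA3 had none in either list. A site inside the gene, chr17:72125236-72126217, was called in both FOXA1 lists (5.53, and 7.53 after CTD deletion) and in FOXA2 without its CTD (11.2), but not in FOXA2. The strongest FOXA peak was chr17:72303788-72305222, 178 kb away (16.3, FOXA1 without its CTD, rank 521). The fusion had 4 peaks, from 63.3 to 150.6 kb away, the strongest being chr17:72264482-72265483 (2.98), and 4.85% of genes were at least as dense.

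SOX2's strongest first-replicate peak at SOX9 was on that site inside the gene, chr17:72125303-72126064 (fold 4.01, −log10 p 5.86). The fusion's first replicate had a peak there too, with a fold of 5.35. Its own strongest was chr17:71973837-71974374, 147 kb below the gene (fold 6.14), which SOX2 shared (fold 3.08). Of genes, 3.86% were at least as dense in SOX2 first-replicate peaks. This site inside SOX9 was the only one of 6 SOX2 and 9 fusion first-replicate peaks at the locus that overlapped a FOXA peak.

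SOX10 (chr22:37972312-37984555), a neural crest and glial gene, sits among 13 other coding genes. FOXA1 had 8 peaks and 3 after CTD deletion, FOXA2 had 9 and 3, and FOXA3 had none. The strongest was chr22:38024508-38025726 in POLR2F (13.6, FOXA1). The same site had 5.47 in FOXA1 without its CTD and 1.92 in FOXA2, and no peak in FOXA2 without its CTD. The fusion had 2 peaks, the stronger being chr22:38177869-38178731 in PLA2G6 (2.57). The first replicates had 3 SOX2 peaks, all shared with the fusion, which had 8. The strongest was chr22:38155913-38156337 in PLA2G6 for SOX2 (fold 4.55) and chr22:38011291-38011791 in POLR2F for the fusion (fold 4.65). No peak of any list had SOX10 as its nearest coding gene, and the same held for SOX8 and SOX7. At SOX9 every peak did.

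SOX7 (chr8:10723768-10730511), the SOXF gene at hand, acts in vascular development. FOXA1 had 6 peaks and 3 after CTD deletion, FOXA2 had 4 and 10, and FOXA3 had 1 and 1. The strongest, chr8:10910838-10913275 in XKR6, had 15.0 in FOXA1 without its CTD. A site in RP1L1, chr8:10621801-10622825, was in 5 of the 6 FOXA lists and had the highest FOXA3 strength of the 10 loci, 11.2 in both lists. The single fusion peak, chr8:10795681-10796097, lay in PINX1 and was also a first-replicate peak of SOX2 and of the fusion. For SOX2 it was the strongest of 2, chr8:10795656-10796151 (fold 3.28), and neither met a q of at most 0.05. The strongest of the fusion's 3 was chr8:10584605-10585254, 139 kb from SOX7 (fold 4.99, −log10 q 3.07).

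With and without the CTD, the lists were first compared as deposited. Over the 10 loci the number of peaks without the CTD relative to full length was 1.12 for FOXA1 (0.822 to 1.52), 1.15 for FOXA2 (0.872 to 1.52) and 1.07 for FOXA3 (0.525 to 2.19). Brackets are 95% intervals from the Wilson interval of the share and cover counting error. The whole lists gave 1.35, 1.18 and 1.11. For FOXA1, 5 loci had more peaks without the CTD (46.2% of genes) and 4 had fewer (35.8%). For FOXA2, 8 had more (51.3%) and 2 had fewer (31.1%). For FOXA3, 1 had more (15%) and 0 had fewer (0.796%).

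At a common IDR limit within each pair the numbers of the FOXA1 and FOXA2 lists lay further apart. With FOXA1 held to the limit of its CTD-deleted form, 26 peaks of FOXA1 faced 85, a ratio of 3.27, and 9 loci had more peaks without the CTD (85.5% of genes) and 0 had fewer (2.35%). The whole lists gave 4.38 at this limit. For FOXA2, 65 peaks faced 106, a ratio of 1.63 (whole lists 1.70), and 9 loci had more (75.6%) and 1 had fewer (9.51%). That locus was SOX10, with 5 FOXA2 peaks against 3. Its lower number for FOXA1 (8 against 3) became 2 against 3 at the common limit.

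SOX9 had the widest difference for FOXA2, 5 peaks against 17 as deposited and 4 against 17 at the common limit, and 1.33% of genes differed as much or more in that direction as deposited. SOX6 had the widest for FOXA1 as deposited, 13 against 21 (3.56% of genes), with 5 against 21 at the common limit, where SOX5 differed more, 12 against 33. At SOX5 FOXA2 had 49 peaks and 41 without its CTD as deposited, but 31 and 41 at the common limit. As deposited, 0.991% of genes matched or passed the SOX5 difference in that direction. These shares of genes rank raw differences that are not scaled to window length. The windows of SOX5 and SOX6 span 1.43 and 1.17 Mb, against 0.405 Mb at SOX9. Without the SOX5 locus the FOXA2 ratio as deposited was 1.51 (1.03 to 2.22). No test is possible on 1 combined list for each group. The depth of the libraries is unknown, and its part in these numbers was not tested.

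**Figure D4:**
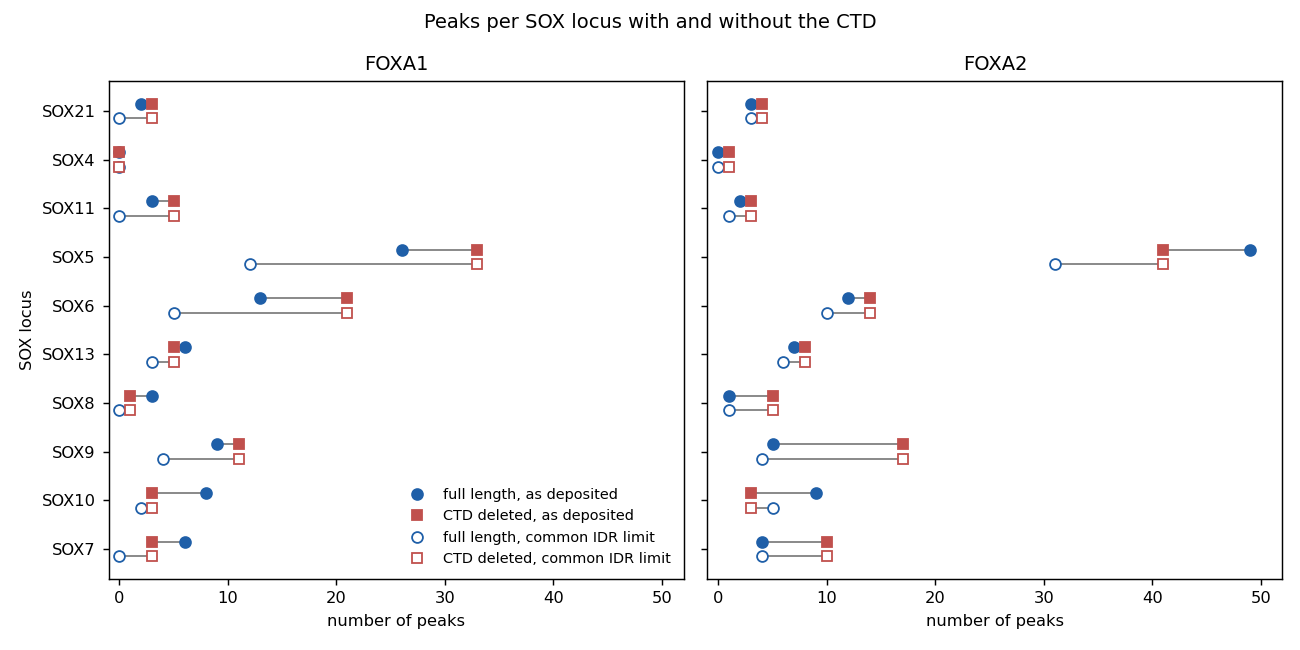
Peaks for each SOX locus in the full-length (blue circles) and CTD-deleted (red squares) lists of FOXA1 and FOXA2, as deposited (filled) and at the common IDR limit of the pair (open). At the common limit the squares lie at or to the right of the circles at all 10 loci for FOXA1, and at all but SOX10 (5 against 3) for FOXA2.

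Within a pair, peaks coincided only in part. Of the 76 FOXA1 peaks at the loci, 34 (44.7%, 33.3 to 56.6) overlapped a peak of FOXA1 without its CTD, against 56.0% of the whole list. For FOXA2 it was 46 of 92 (50.0%, 39.4 to 60.6), against 51.3%. These are exact Clopper-Pearson 95% intervals over peaks. Overlapping peaks of the 8 combined lists formed 228 sites at the loci, of which 145 (63.6%) came from 1 list alone, against 54.4% of sites over the genome. All 6 FOXA lists shared 7 sites (3.07%, against 1.74%): 4 at SOX5, 2 at SOX13 and 1 at SOX21.

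The fusion and SOX2 could be compared best in the first-replicate lists. There the fusion had 2.76 times as many peaks at the loci (1.86 to 4.10), against 3.06 over the whole lists. It had more at 9 loci (86.2% of genes) and fewer at 0 (0.496%). SOX8, with 0 in both, made up the rest. At 30 of the 33 SOX2 peaks (90.9%, 75.7 to 98.1) a fusion peak was called as well, against 74.8% of the whole list, while 30 of the 91 fusion peaks (33.0%, 23.5 to 43.6) overlapped a SOX2 peak, against 24.3%. At a q of at most 0.05 the lists kept 6 SOX2 and 31 fusion peaks. Those of SOX2 lay at SOX5, SOX9 and SOX10 only, and the fusion had none at SOX21, SOX4 or SOX8. In the combined lists 0 SOX2 peaks faced 23 of the fusion, which had more at 7 loci (47.9%) and fewer at 0 (0.17%), but at the common IDR limit of 0.100 the loci held 0 peaks in both. None of the 23 fusion peaks reached an IDR of 0.01, which 382 of 7844 did over chromosomes 1 to 22 and X. Of the 23, 15 (65.2%) recurred in the fusion's first-replicate list and 9 (39.1%) in that of SOX2, against 55.1% and 21.5% of the whole list.

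A minority of the SOX2 and fusion peaks at the SOX loci, as deposited, fell on a FOXA peak. Of the 23 combined fusion peaks 3 (13.0%, 2.78 to 33.6) overlapped a peak of any FOXA list, against 37.7% of the whole list and 27.3% of it outside the longest gene-free stretches. These 3 were at SOX5 (chr12:23402603-23402935, with FOXA1, FOXA2 and FOXA2 without its CTD), SOX8 and SOX10, and 22.6% of genes have such a peak. None of the 9 fusion peaks that recurred in the SOX2 first-replicate list overlapped a FOXA peak. The share for such recurring peaks over the whole list was not computed, so no trait of these sites follows. The median distance from a fusion summit to the nearest FOXA summit was 6.36 kb, and 16 of 23 lay within 10 kb. These distances were not computed for the whole list, so whether they are short for these lists cannot be told.

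For the first-replicate lists the share was 7 of 33 for SOX2 (21.2%, 8.98 to 38.9), against 27.7% of the whole list, and 14 of 91 for the fusion (15.4%, 8.67 to 24.5), against 19.3%. Such peaks were at 3 loci for SOX2 (26.9% of genes) and at 6 for the fusion (52.5%). The SOX2 share was 50% at a q of at most 0.05 (3 of 6), 31.8% within 50 kb (7 of 22), 12.1% for 50% reciprocal overlap and 9.09% for summits within 100 bp. The intervals given for 7 of 33 and 14 of 91 include the values of the whole lists, as that of the fusion's combined list includes 27.3% but not 37.7%. The 7 SOX2 sites were 5 at SOX5, among them its promoter, 1 at the SOX6 internal promoter and 1 inside SOX9. At SOX5 another, chr12:23954323-23954849, lay on a site of both FOXA2 and both FOXA3 lists. The rest at SOX5 were chr12:23525659-23525985, with all 6 FOXA lists, chr12:23757451-23757882, with 1 FOXA list, and chr12:23889026-23889300, with 2. The SOX2 peaks that met a q of at most 0.05 were chr12:23757451-23757882, chr12:23889026-23889300 and the one inside SOX9. Their −log10 q was 3.04, 2.26 and 1.42. The others did not meet it, with 0.121 at chr12:23954323-23954849. All 7 sites were also fusion first-replicate peaks. Fusion peaks alone met FOXA at chr12:23955185-23955382 and chr12:24042650-24042948 in SOX5, chr11:16001978-16002260 in SOX6, chr1:203919584-203919785 near SOX13, and chr2:5546229-5546594 and the strongest peak near SOX11. At SOX4, SOX7, SOX8, SOX10, SOX13 and SOX21 no SOX2 first-replicate peak overlapped a FOXA peak, and SOX4, SOX8 and SOX11 had none of these peaks.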

How the data were processed

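Flag ChIP-seq peak lists of 8 factor groups (2 biological replicates each) in U2OS cells were used. Per the submitters' processing notes, reads were handled with FastQC 0.10.1, Trim Galore, Bowtie2 2.4.4, SAMtools 0.1.18, MACS2 and deepTools 2.4.1 on hg38. The control and the IDR limit are not given in the sources used here. The authors' 8 combined lists hold an IDR score (125 times −log2 of the IDR, at most 1000) and the −log10 p of each replicate. The deposited first-replicate lists of SOX2 and the fusion give, for each peak, −log10 p, −log10 q and the ratio of signal to local background, called fold enrichment here. These values are the authors' own and served to describe, rank or filter peaks. Of 14 deposited lists 4 were copies of others.

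From these, peaks with a summit within 200 kb of each gene were counted, in Python 3.11.15 with numpy 2.4.6, pandas 2.3.3 and scipy 1.17.1, beside the same over 19974 protein-coding genes on chromosomes 1 to 22 and X of RefSeq GRCh38.p14. Peaks overlapped when they shared at least 1 bp. Ties in strength were ordered by position. The counting code was tested on simulated data. Depth is unknown, and with 1 combined list for each group no test was made. The genes and lists were chosen with earlier results of these data known. All 10 genes are named, with the strongest SOX2, fusion and FOXA1 or FOXA2 peak of each locus, peaks over promoters, and sites that SOX2 or the fusion shares with FOXA, of which some are given as counts and 1 is not reported here. Other named sites, such as those of all 6 FOXA lists, were chosen after their values were seen. Alternatives were windows of 50 and 500 kb, an IDR of at most 0.01, merged peaks, 50% reciprocal overlap, summits within 100 bp, a common IDR limit and the first-replicate lists.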

Additional observations from a re-analysis of the deposited data

Results flagged for a closer look

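At 4 loci the difference between the lists without and with the CTD had opposite signs for FOXA1 and FOXA2, and the difference between the 2 factors was not tested. At SOX5 FOXA1 differed by 7 peaks and FOXA2 by -8, so that FOXA2 less FOXA1 came to -15. At SOX7 the differences were -3 and 6, which gives 9. At SOX8 they were -2 and 4, which gives 6, and at SOX13 -1 and 1, which gives 2. Opposite signs were found at 5991 of 19974 protein-coding genes (30.0%). At the common IDR limit of each pair, all 4 loci had more peaks without the CTD for both factors: 12 against 33 and 31 against 41 at SOX5, 0 against 3 and 4 against 10 at SOX7, 0 against 1 and 1 against 5 at SOX8, and 3 against 5 and 6 against 8 at SOX13.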

How the results depend on the processing

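Of 109 alternatives for 26 values, 74 stayed close and 35 moved, with some density ratios crossing 1. Peak numbers followed the window. At 50 kb FOXA1 had 46, FOXA2 without its CTD 61, the FOXA3 lists 6 and 7, and the fusion 13. At 500 kb FOXA1 had 133 and 155 without its CTD, FOXA2 157 and 168, FOXA3 24 and 27, the fusion 39 and its first replicate 161. At 50 kb, SOX5 included, the density ratio was 1.25 for FOXA1 without its CTD and 1.49 for FOXA2. The fusion's first replicate gave 1.53. At 500 kb the ratio was 0.809 for FOXA2 without its CTD. At an IDR of at most 0.01 the loci held 10 FOXA1 peaks (density ratio 1.51), 43 without the CTD, 0 of FOXA2, 14 of FOXA2 without its CTD and 0 of the fusion (ratio 0). The whole FOXA2 list has no peak at that limit, so its density ratio has no value, and neither has the share of fusion peaks on FOXA peaks. A common IDR limit gave CTD ratios of 3.27 for FOXA1 and 1.63 for FOXA2. With identical rows left out of the FOXA3 list its ratio was 15, since only 1 row remains. The share of fusion peaks on FOXA peaks was 0% at 50 kb (0 of 13). Alternatives chosen after seeing the data were a q of at most 0.05, which left 6 SOX2 and 31 fusion first-replicate peaks, a fusion to SOX2 ratio of 5.17 and a FOXA share of 50% for SOX2 (3 of 6), and leaving out SOX5, with density ratios of 0.653 for FOXA2, 0.833 without its CTD and 0.785 for the fusion's first replicate. No paired analysis was possible because each group has 1 combined list made from both replicates, and leaving out a replicate was possible only through the first-replicate lists. With SOX2 at 0, a fusion to SOX2 ratio of combined lists has no value.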

Other observations

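The other 8 SOX genes of the family, SOX1, SOX3, SOX12, SOX14, SOX15, SOX17, SOX18 and SOX30, were counted in the same way. Their windows held 20 FOXA1 peaks and 28 after CTD deletion, 22 FOXA2 peaks and 34 after CTD deletion, and 1 and 2 FOXA3 peaks. The only combined SOX2 peak was at SOX1, a SOXB1 gene like SOX2, which also had 3 of the 5 fusion peaks. SOX14, a SOXB2 gene, had 2 FOXA2 peaks and 13 after CTD deletion, and 3 SOX2 and 11 fusion peaks in the first-replicate lists. SOX17, the SOXF gene of endoderm formation, had 2 FOXA1 peaks and 9 after CTD deletion, and 6 and 5 for FOXA2. SOX18 had 1 FOXA1 peak and none in the other lists.

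Some promoters of neighbouring genes lay under peaks. That of GOLT1A, at the SOX13 locus (chr1:204213989-204214238), was in 5 of the 6 FOXA lists and held neither a forkhead nor a SOX word. The promoters of ETNK2 near SOX13 and of LMF1 near SOX8 carried fusion peaks of the combined list only. Those of SSTR5 and SSTR5-AS1 near SOX8 carried peaks of FOXA1 and of FOXA2 without its CTD.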
